A study of Mus musculus with 16 samples.

Results

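Calcineurin, its regulators and the NFAT factors it acts on were followed here through 8 genes in the mouse hippocampus: the subunit genes Ppp3ca, Ppp3cb and Ppp3r1, the regulators Rcan1, Rcan2 and Rcan3, and the transcription factors Nfatc3 and Nfatc4. All probe sets that carry a single gene symbol in the platform annotation and whose symbol is one of these 8 were taken, which gave 22 probe sets of the 34945 with a single symbol. Of the 22, 17 probe sets of 7 genes had a log2 value over 4 on at least 4 arrays and entered the fit over 23905 probe sets. The 4 probe sets of Nfatc4 and 1 of the 2 of Rcan3 did not. Rcan2, and with it this gene group, was chosen by its difference between AbPP antisense and Random antisense mice, so the values of that comparison, and of the comparisons that share its arrays, are given as a description with no test. Only untreated SAMP8 against Control was tested for these genes.

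Hippocampal RNA of 16 male mice aged 12 months was measured on 16 Affymetrix arrays, 1 mouse to an array and 4 mice to a group. AbPP antisense mice were of the senescence-accelerated line SAMP8 and received, by the intravenous route, an antisense oligonucleotide directed at the amyloid beta precursor protein. Random antisense mice were also SAMP8 and received a random oligonucleotide by the same route. SAMP8 mice were untreated and are described as having memory deficits at this age, whereas the untreated Control mice, a 50% backcross of SAMP8 with the CD-1 stock, are described as having none. The Control line therefore shares part of its genome with SAMP8, and dose and schedule of the oligonucleotides are not given in the sources used here. The treatment label of Random antisense 1 reads as untreated, against its title, source and description, and it was kept in its titled group.

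Calcineurin is the calcium- and calmodulin-activated protein phosphatase of the cell. It is built of a catalytic A subunit and a calcium-binding B subunit, is abundant in hippocampal neurons, and there removes phosphate from proteins of synaptic plasticity. It also removes phosphate from NFAT proteins, which then enter the nucleus and switch on target genes, while RCAN proteins bind calcineurin and can inhibit it. Rcan1 is itself an NFAT target through a second transcription start inside the gene, so that the pathway feeds back on its own inhibitor.

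Hippocampal markers were present on the arrays, with 8 of 8 pyramidal neuron markers and 7 of 7 dentate granule neuron markers over 4 log2 on at least 4 arrays. The AbPP antisense arrays were the most uneven. The log2 of the summed dentate markers was 12.32, 10.38, 12.78 and 10.40 on AbPP antisense 1 to 4, against 11.43 to 12.30 on the other 12 arrays. The summed choroid plexus markers were 13.30, 11.20, 13.49 and 15.30 on AbPP antisense arrays and 15.30 to 15.95 on the other 12. AbPP antisense 4 had a beta-actin 3′ minus 5′ difference of 3.89 log2, against 0.84 to 1.60 on the other 15 arrays, a measure that rises as RNA degrades. Control 4 had a log2 sum of leukocyte markers of 14.94, against 11.11 to 11.57 on the other 15 arrays. App, the gene the antisense was directed at, read 13.89 to 14.32 in AbPP antisense mice and 14.34 to 14.43 in Random antisense mice (difference -0.22 log2, SE 0.13, limma adjusted p = 0.503).

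The windows upstream of the 2 listed starts of Rcan1 and the first of the 3 listed starts of Rcan2 are shown. Rcan2 is shown because it was chosen by its value, and Rcan1 because NFAT acts on it through DNA. Sequences are from RefSeq on mouse GRCm38.p6 and hold the 250 bases before the start, 5′ to 3′ on the strand of the gene. Capitals mark the core NFAT motif GGAAA, or its reverse complement TTTCC.
Rcan1 upstream start, chr16:92466170-92466419, minus strand: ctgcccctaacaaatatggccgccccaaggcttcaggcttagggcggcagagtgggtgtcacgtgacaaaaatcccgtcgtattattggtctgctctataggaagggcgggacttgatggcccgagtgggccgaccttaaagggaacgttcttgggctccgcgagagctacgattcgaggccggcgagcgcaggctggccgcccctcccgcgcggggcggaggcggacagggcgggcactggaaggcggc
Rcan1 internal start, chr16:92400079-92400328, minus strand: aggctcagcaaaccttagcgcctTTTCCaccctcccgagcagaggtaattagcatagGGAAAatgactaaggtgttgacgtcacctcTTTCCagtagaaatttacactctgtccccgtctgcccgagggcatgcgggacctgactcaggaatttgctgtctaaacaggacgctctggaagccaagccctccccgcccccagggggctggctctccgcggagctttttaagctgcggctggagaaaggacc
Rcan2 first start, chr17:43801102-43801351, plus strand: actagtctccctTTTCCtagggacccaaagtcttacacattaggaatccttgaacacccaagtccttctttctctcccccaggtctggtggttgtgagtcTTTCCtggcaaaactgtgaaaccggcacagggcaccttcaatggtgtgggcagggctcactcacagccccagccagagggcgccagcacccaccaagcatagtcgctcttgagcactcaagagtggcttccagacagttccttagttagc

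The window before the internal Rcan1 start held 3 such motifs, 1 as GGAAA and 2 as TTTCC. The window before the upstream Rcan1 start held 0, the window before the first Rcan2 start held 2, and that before the last of the 3 listed Rcan2 starts held 0. The window of the last Rcan2 start is not printed above, and that of the middle Rcan2 start is neither printed nor counted here. Of 32851 mouse promoter windows of the same length, 55.6% held at least 1 such motif on either strand, 21.4% held at least 2 and 6.39% held at least 3. A match of these letters is a description and not a binding site. The sources used here do not place the probes on the transcripts, so no probe set was tied to a start.

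Rcan2, first known as a gene responsive to thyroid hormone in human cells, was measured by a dim and a bright probe set that did not give the same picture. On the dim one (1450243_a_at) AbPP antisense mice 1 to 4 read 5.89, 6.51, 6.59 and 5.88 log2. Random antisense mice read 8.23, 7.98, 7.75 and 7.84, untreated SAMP8 mice 7.92, 7.77, 7.99 and 8.13, and Control mice 8.22, 8.81, 8.64 and 7.61. All 4 AbPP antisense mice lay below each of the other 12 mice. The difference was -1.73 log2 (SE 0.24) for AbPP antisense minus Random antisense, a 3.33-fold lower level on this scale, and -1.74 for AbPP antisense minus SAMP8. Random antisense minus SAMP8 was -0.0016. The adjusted p of 0.00776 in limma is the value that chose the gene, and it was 0.103 when the 8 arrays of that comparison were fitted alone. In bulk tissue, fewer cells of a type and less RNA per cell cannot be told apart.

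The bright Rcan2 probe set (1421425_a_at) overlapped between groups. AbPP antisense mice read 12.30, 13.04, 11.39 and 12.62 log2, Random antisense mice 12.93, 12.72, 12.59 and 12.80, untreated SAMP8 mice 12.72, 12.68, 12.70 and 12.70, and Control mice 12.85, 12.91, 12.69 and 12.63. AbPP antisense 3 was the lowest of all 16 arrays here and AbPP antisense 2 the highest. The AbPP antisense minus Random antisense difference was -0.42 log2 (SE 0.25), -0.11 without AbPP antisense 3 and -0.66 without AbPP antisense 2. Over the 16 arrays, which share the 4 groups, the dim and bright probe sets had a Pearson r of 0.45 and a Spearman rho of 0.56.

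**Figure D1:**
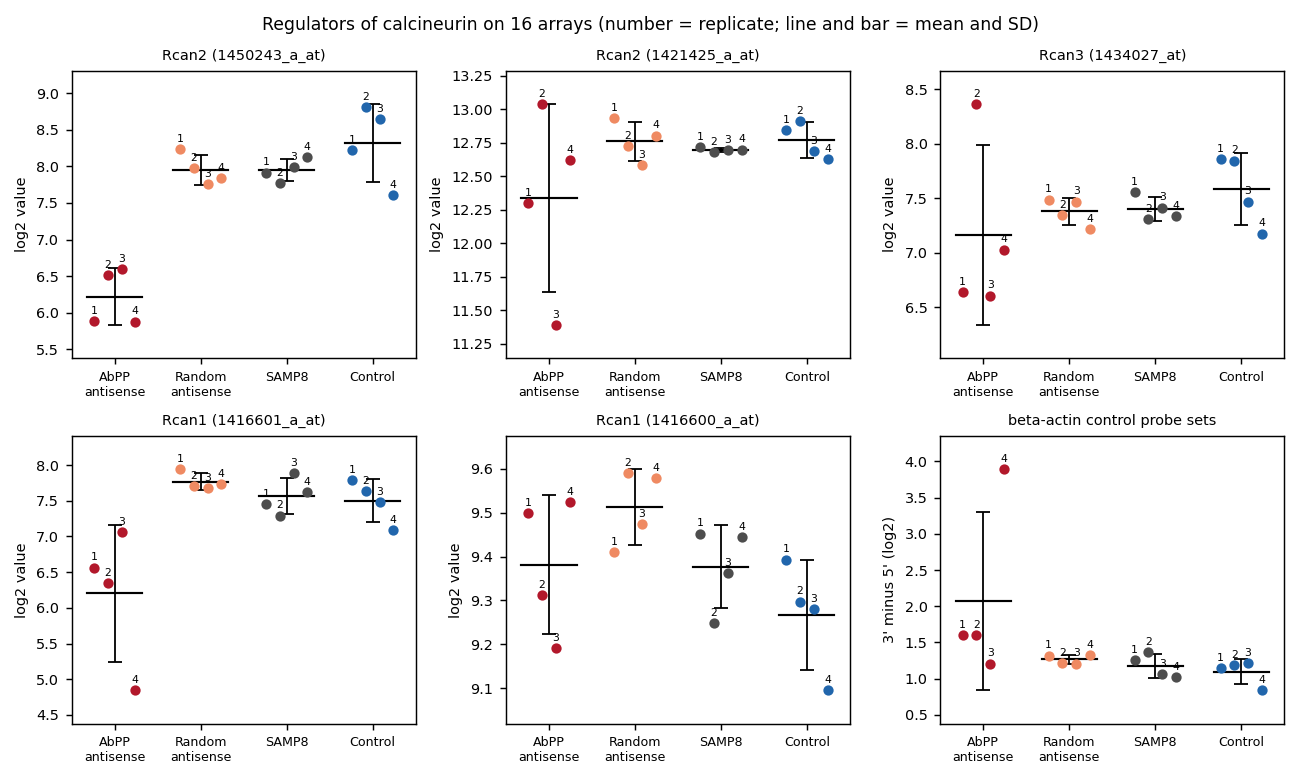
Log2 values (vertical axes) of the tested Rcan probe sets on each of 16 arrays, by group; each point is a mouse numbered by replicate, and the line and bar are the mean and SD of 4 mice, with the actin 3′ minus 5′ difference in the last panel. The 4 AbPP antisense mice sit at 5.88 to 6.59 on Rcan2 1450243_a_at, below all other mice, and at 4.84 to 7.06 on Rcan1 1416601_a_at.

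Other measures of the arrays also differed between AbPP antisense and Random antisense mice. The summed microglia markers, 8 of 8 detected, ranged over 12.66 to 12.87 log2 in AbPP antisense mice and 12.20 to 12.47 in Random antisense mice. The endothelial and mural markers, 6 of 8 detected, ranged over 10.86 to 11.45 in AbPP antisense mice and 10.35 to 10.81 in Random antisense mice. Blood markers, 2 of 3 detected, ranged over 7.03 to 10.40 in AbPP antisense mice and 6.69 to 6.82 in Random antisense mice. Untreated SAMP8 mice had blood sums of 6.52 to 8.50. Control 4 had sums of 13.31 for microglia and 11.09 for endothelial and mural markers, and read 7.61 on the dim Rcan2 probe set. The part of these cell types and of blood in the Rcan2 value was not tested. AbPP antisense 1 to 4 read 5.89, 6.51, 6.59 and 5.88 on the dim Rcan2 probe set. Their choroid plexus sums were 13.30, 11.20, 13.49 and 15.30, and their actin differences 1.60, 1.60, 1.21 and 3.89. The AbPP antisense minus Random antisense difference of Rcan2 was -1.61 with the actin difference as a covariate. It was -1.62 without AbPP antisense 4 and Control 4. The part of choroid plexus content and of RNA quality in the Rcan2 value was not tested.

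Rcan1, the feedback inhibitor encoded in the human Down syndrome region, also had a dim and a bright probe set that differed. On the dim one (1416601_a_at) AbPP antisense mice read 6.56, 6.35, 7.06 and 4.84 log2, Random antisense mice 7.94, 7.71, 7.68 and 7.74, untreated SAMP8 mice 7.45, 7.29, 7.88 and 7.62, and Control mice 7.79, 7.63, 7.49 and 7.09. The 4 AbPP antisense mice lay below the 12 other mice, with AbPP antisense 3 just under Control 4. AbPP antisense minus Random antisense was -1.56 log2 (SE 0.34, 2.95-fold lower), and AbPP antisense minus SAMP8 was -1.36. AbPP antisense 4, the array with the largest actin difference, read lowest, and without it and Control 4 the differences were -1.11 and -0.91, and with the actin difference as a covariate they were -0.97 and -0.70.

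On the bright Rcan1 probe set (1416600_a_at) the groups overlapped. AbPP antisense mice read 9.50, 9.31, 9.19 and 9.52 log2, Random antisense mice 9.41, 9.59, 9.47 and 9.58, untreated SAMP8 mice 9.45, 9.25, 9.36 and 9.44, and Control mice 9.39, 9.30, 9.28 and 9.09. AbPP antisense 4 was among the higher arrays on it, whereas it was the lowest on the dim probe set. The differences were -0.13 (AbPP antisense minus Random antisense), 0.0048 (AbPP antisense minus SAMP8) and 0.14 (Random antisense minus SAMP8). The dim and bright probe sets of Rcan1 had a Pearson r of -0.035 over the 16 arrays (Spearman rho 0.20).

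Rcan3, which encodes the third RCAN protein, had 1 tested probe set (1434027_at) with no shift shared by the 4 AbPP antisense mice. They read 6.64, 8.37, 6.61 and 7.03 log2, Random antisense mice 7.49, 7.35, 7.47 and 7.22, untreated SAMP8 mice 7.56, 7.31, 7.42 and 7.34, and Control mice 7.86, 7.85, 7.47 and 7.18. AbPP antisense 2 was the highest of the 16 and the other AbPP antisense mice were the lowest. The AbPP antisense minus Random antisense difference was -0.22 (SE 0.30), -0.62 without AbPP antisense 2 and -0.035 without AbPP antisense 3. The second Rcan3 probe set read 2.27 to 2.91 on all arrays and was not tested.

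Among the subunits, Ppp3ca, the alpha form of the catalytic subunit and the main one in brain, had a value that split the AbPP antisense mice. On its brightest probe set (1426401_at) they read 14.38, 13.31, 14.59 and 13.24 log2, Random antisense mice 14.33, 14.41, 14.39 and 14.33, untreated SAMP8 mice 14.19, 14.33, 14.39 and 14.25, and Control mice 14.20, 14.26, 14.36 and 13.66. AbPP antisense 2 and 4 were the lowest of the 16 arrays and AbPP antisense 3 the highest. The mean difference was -0.49 for AbPP antisense minus Random antisense (SE 0.26) and -0.27 without AbPP antisense 4 and Control 4. On the second (1452056_s_at) AbPP antisense mice read 13.41, 11.73, 13.28 and 11.93, against 12.90 to 13.03 in Random antisense mice, a difference of -0.40 (SE 0.31). On the third (1438478_a_at) AbPP antisense mice read 13.16, 11.48, 13.09 and 11.53, against 12.71 to 12.79 in Random antisense mice, a difference of -0.44 (SE 0.33). The 3 Ppp3ca probe sets thus ordered the AbPP antisense mice alike, with 1 and 3 above 2 and 4. Over the 16 arrays their pairs had Pearson r of 0.965 to 0.978 and Spearman rho of 0.75 to 0.85.

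Summed regional markers split the same mice. AbPP antisense 2 and 4 had dentate sums of 10.38 and 10.40, and AbPP antisense 1 and 3 had 12.32 and 12.78. Pyramidal sums were 11.79 and 12.27 in AbPP antisense 2 and 4, and 13.32 and 13.27 in AbPP antisense 1 and 3. Thalamus markers, 7 of 7 detected, ran the other way, at 13.58 and 13.37 in AbPP antisense 2 and 4, and 10.49 and 10.50 in AbPP antisense 1 and 3. The Random antisense, SAMP8 and Control arrays had thalamus sums of 12.30 to 13.60. AbPP antisense 2 and 4 lay inside that range, and AbPP antisense 1 and 3 lay below it. The part of tissue content in the Ppp3ca values was not tested.

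Ppp3cb, the beta form of the catalytic subunit, read 13.11, 12.40, 13.23 and 13.04 log2 in AbPP antisense mice on its brightest probe set (1428473_at). Random antisense mice read 13.08, 13.15, 13.13 and 13.12, untreated SAMP8 mice 13.06, 13.00, 13.11 and 13.11, and Control mice 12.99, 13.06, 13.09 and 12.55. AbPP antisense 2 and Control 4 were low and the other 14 arrays lay close together. The AbPP antisense minus Random antisense difference was -0.18 (SE 0.16), and 0.0056 without AbPP antisense 2.

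The other 4 Ppp3cb probe sets did not follow a common course. On 1427468_at AbPP antisense mice read 10.70, 9.54, 11.32 and 7.68 and Random antisense mice 10.91 to 11.22, a difference of -1.32 (SE 0.53) that was -0.61 without AbPP antisense 4 and Control 4. AbPP antisense 4 was the low array on it. On 1433835_at AbPP antisense mice read 7.90, 9.77, 8.38 and 8.71 and Random antisense mice 8.51 to 9.08 (difference -0.19), with AbPP antisense 2 the highest of the 16 arrays where it was the lowest on the brightest probe set. On 1428474_at AbPP antisense mice read 8.81, 8.10, 8.87 and 8.85 and Random antisense mice 8.78 to 9.01 (difference -0.21), and AbPP antisense 2 was low again. The dimmest (1446149_at, 4.32 to 5.36 in AbPP antisense mice and 3.98 to 4.35 in Random antisense mice) had a positive difference of 0.49. Pearson r between pairs of Ppp3cb probe sets ranged from -0.45 to 0.87 over the 16 arrays, and Spearman rho from -0.49 to 0.54.

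Ppp3r1, the calcium-binding B subunit, split the AbPP antisense mice in the way Ppp3ca did. On its brightest probe set (1433591_at) AbPP antisense mice read 13.70, 12.92, 13.69 and 12.74 log2, Random antisense mice 13.43, 13.59, 13.65 and 13.52, untreated SAMP8 mice 13.54, 13.54, 13.68 and 13.56, and Control mice 13.57, 13.50, 13.60 and 12.94. AbPP antisense 2 and 4 and Control 4 were the 3 lowest arrays. The AbPP antisense minus Random antisense difference was -0.28 (SE 0.21), and -0.11 without AbPP antisense 4 and Control 4. On the dimmer Ppp3r1 probe set (1421786_at) AbPP antisense mice read 8.94, 8.87, 9.25 and 9.38, with AbPP antisense 4 the highest of the 16 arrays. The difference there was -0.064, and the r between the probe sets of the gene was 0.15.

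**Figure D2:**
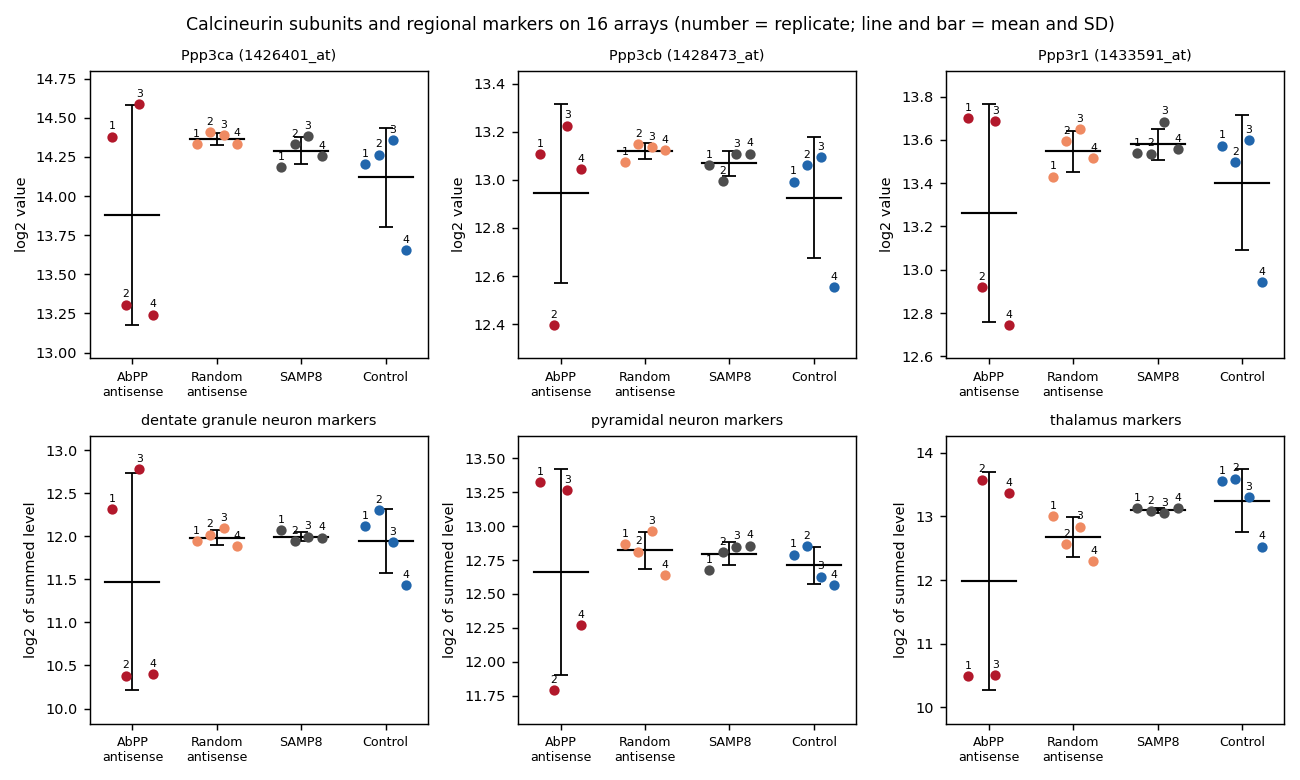
Upper row: log2 values (vertical axes) of the brightest probe set of each calcineurin subunit on 16 arrays by group; lower row: log2 of the summed level of regional marker lists on the same arrays. Points are mice numbered by replicate, lines and bars the mean and SD of 4. AbPP antisense 2 and 4 are low for Ppp3ca, Ppp3r1, dentate and pyramidal markers, and AbPP antisense 1 and 3 are low for thalamus markers.

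Nfatc3, which encodes a transcription factor that calcineurin activates, read 7.66, 7.95, 7.20 and 8.21 log2 in AbPP antisense mice on its brighter probe set (1419976_s_at). Random antisense mice read 7.35, 7.67, 7.39 and 7.49, untreated SAMP8 mice 7.26, 7.73, 7.26 and 7.46, and Control mice 7.41, 7.22, 7.53 and 9.29. Control 4 stood above the other 15 arrays. The AbPP antisense minus Random antisense difference was 0.28 (SE 0.36), and 0.13 without AbPP antisense 4.

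On the dimmer Nfatc3 probe set (1452497_a_at) AbPP antisense mice read 5.63, 4.84, 4.59 and 4.40 log2, Random antisense mice 4.99, 5.06, 4.90 and 4.97, untreated SAMP8 mice 4.96, 4.96, 4.96 and 5.49, and Control mice 4.96, 4.79, 4.78 and 7.19. Control 4 was again the highest, on the array whose leukocyte markers were high: 5 of the 10 leukocyte markers were over 4 log2 on at least 4 arrays, and Cd3e, Cd3g and Cd79a were over 4 on none. The part of leukocytes in the Nfatc3 values was not tested. Nfatc4 read 1.73 to 3.53 on its 4 probe sets in all groups, which is under the level tested and gives no account of the gene.

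**Figure D3:**
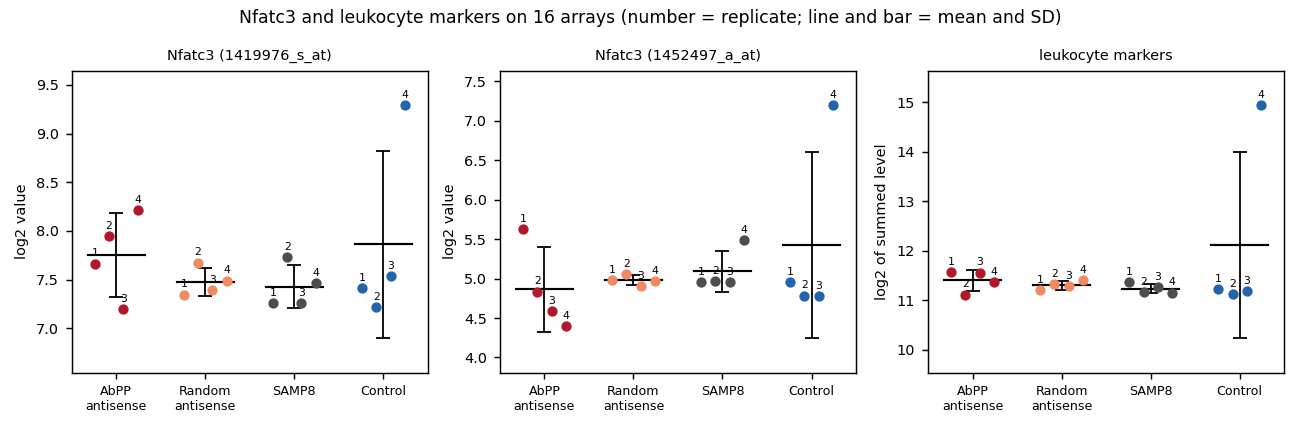
Log2 values (vertical axes) of the Nfatc3 probe sets, and log2 of the summed leukocyte markers, on 16 arrays by group; points are mice numbered by replicate, lines and bars the mean and SD of 4. Control 4 is the highest array in all 3 panels, at 9.29 and 7.19 for Nfatc3 and 14.94 for the leukocyte sum.

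Untreated SAMP8 mice and Control mice were compared to ask how the line with memory deficits differs from its partial backcross. None of the 17 probe sets of calcineurin genes passed an adjusted p of 0.05 in limma, where 0.36% of all probe sets tested passed. An unadjusted p under 0.05 was found for 0 of the 17 and for 4.38% of all probe sets. Of the 17 differences 11 were positive and 6 negative, with a median of 0.12 log2 against 0.040 over all probe sets. Over all probe sets 41.6% of the differences were negative. Each had an adjusted p of 0.999.

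The lowest SAMP8 minus Control difference was that of Nfatc3 1419976_s_at, at -0.43 (SE 0.36), and it was 0.043 without Control 4. The dim Rcan2 probe set had -0.37 (SE 0.24), with means of 7.95 ± 0.15 in untreated SAMP8 mice and 8.32 ± 0.54 in Control mice (SD, n = 4 each), and -0.60 (SE 0.19, limma adjusted p = 0.374) without Control 4 and AbPP antisense 4. Control 2 and 3 read highest and Control 4 lowest, so the groups overlapped through Control 4. The dim Rcan1 probe set had 0.064 (SE 0.34), and -0.073 without Control 4. For Ppp3ca, Ppp3cb and Ppp3r1 the brightest probe sets gave 0.17, 0.14 and 0.18, which were 0.015, 0.019 and 0.023 without Control 4. The median SE over the 17 probe sets was 0.26 log2, with the spread of all groups pooled, AbPP antisense mice included. Small differences were therefore not detectable.

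Random antisense minus SAMP8 differences of the 17 probe sets ranged from -0.23 to 0.20, with 10 positive and 7 negative. Over all probe sets 52.9% were negative. The median of the 17 was 0.046 against -0.010 over all probe sets. In that comparison 0 of the 17 and 0% of all probe sets were called. AbPP antisense minus SAMP8 was negative for 13 of 17, beside 49.3% of all probe sets, with a median of -0.31 against 0.0043. The dim Rcan2 probe set was the 1 of 17 past the threshold there, beside 0.251% of all probe sets called lower. It was chosen with the same AbPP antisense arrays, so this is no test of it. AbPP antisense minus Random antisense was negative for 15 of 17, beside 49% of all probe sets, with a median of -0.22 against 0.0075. Here the dim Rcan2 probe set was past the threshold because this comparison chose it, beside 0.0711% of all probe sets called lower. The dim Rcan1 and Rcan2 probe sets were the 2 of 17 with all 4 AbPP antisense arrays below all 4 others in both of these comparisons, which held for 4.41% of all probe sets against SAMP8 and 3.71% against Random antisense. The 17 probe sets are of 7 genes, both comparisons use the same AbPP antisense arrays, and nothing is read from their counts.

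The spread between mice was widest after AbPP antisense. Of the 17 probe sets, 13 had their largest SD in AbPP antisense mice and 4 in Control mice, beside 60.6% and 35% of all probe sets. The median SD of the 17 was 0.54 log2 in AbPP antisense mice, 0.10 in Random antisense mice, 0.11 in untreated SAMP8 mice and 0.31 in Control mice. For 14 of the 17 the lowest of 16 arrays was an AbPP antisense array, which was so for 45.1% of all probe sets, and for 10 of the 17 the highest was one too (52.6% of all). The fit pools the spread of all groups, so its SE understates that of the AbPP antisense mean for many of these probe sets. For the same reason it overstates that of SAMP8 minus Control for many of them. With only the 8 arrays of that comparison, 0 of the 17 passed as well.

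**Figure D4:**
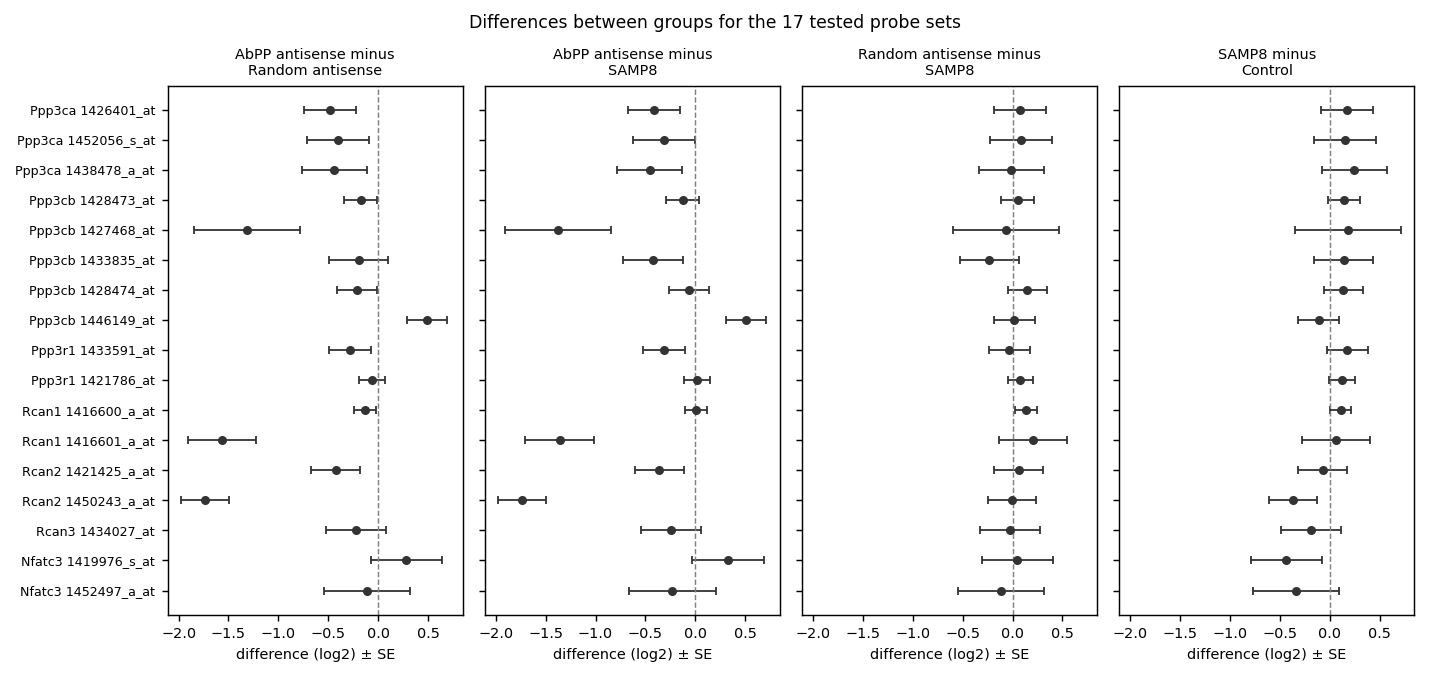
Differences in log2 (horizontal axis) of the 17 tested probe sets in the 4 comparisons, with bars of 1 SE. The dim probe sets of Rcan2 and Rcan1 lie at -1.73 and -1.56 for AbPP antisense minus Random antisense, and the SAMP8 minus Control differences lie between -0.43 and 0.24.

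Around the 8 genes, 65 further genes of the pathway were listed in 5 groups, and 47 had a tested probe set of their own. Of these 47, 0 passed in any of the 4 comparisons in limma. The shares of all 11465 genes that passed were 0.0262% in AbPP antisense minus Random antisense, 0.0959% in AbPP antisense minus SAMP8, 0% in Random antisense minus SAMP8 and 0.227% in SAMP8 minus Control. The unadjusted p was under 0.05 for 3 of the 47 in AbPP antisense minus Random antisense, 3 in AbPP antisense minus SAMP8, 0 in Random antisense minus SAMP8 and 2 in SAMP8 minus Control. Over all genes, 8.84%, 10%, 1.04% and 3.77% had an unadjusted p under 0.05 in these comparisons, in the same order. The median difference over the 47 was -0.086, -0.12, 0.036 and 0.10 log2, against 0.040, 0.028, -0.012 and 0.044 over all genes.

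Calcineurin partners and other subunits had 5 tested genes of 11, none past the threshold. Cabin1, which encodes a protein that binds and inhibits calcineurin, had the smallest p of the group with AbPP antisense, at 0.26 log2 against Random antisense (SE 0.15, limma adjusted p = 0.506) and 0.32 against SAMP8 (adjusted p = 0.345). AbPP antisense 4 read 8.23 on Cabin1 and the other AbPP antisense mice 7.39 to 7.57, and without it the differences were 0.078 and 0.14. Akap5, which encodes the scaffold that anchors calcineurin at the synapse, had 0.22 for Random antisense minus SAMP8 (adjusted p = 1.00), which was 0.13 without Random antisense 4, and 0.43 for SAMP8 minus Control (SE 0.20, adjusted p = 0.999).

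All 11 other NFAT genes and NFAT kinases were tested and none passed. Csnk1e, a casein kinase gene, had -0.63 log2 for AbPP antisense minus Random antisense (SE 0.28, limma adjusted p = 0.385), and -0.38 without AbPP antisense 1. Its relative Csnk1a1 had -0.26 for AbPP antisense minus SAMP8 (adjusted p = 0.386), and -0.15 without AbPP antisense 4. Gsk3a, encoding a kinase that returns NFAT to the cytoplasm, had 0.23 for Random antisense minus SAMP8. Nfatc1 read 4.38, 4.29, 4.72 and 4.57 in untreated SAMP8 mice and 5.12, 5.13, 4.83 and 8.25 in Control mice, and Control 4 stood far above the rest. Its SAMP8 minus Control difference of -1.35 (SE 0.56, adjusted p = 0.999) was -0.54 without Control 4 and AbPP antisense 4 (adjusted p = 0.451).

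Calcineurin substrates in neurons had 16 tested genes of 17 and none passed. Ppp1r1a, encoding protein phosphatase inhibitor 1, which calcineurin switches off, had the largest difference of the group. It read 6.87, 6.84, 7.32 and 6.75 log2 in untreated SAMP8 mice and 9.34, 9.58, 6.96 and 8.86 in Control mice. Control 3 read like an SAMP8 mouse and the other 3 Control mice lay higher, so that SAMP8 minus Control was -1.74 (SE 0.56, limma adjusted p = 0.59). Ppp1r1b, encoding the related DARPP-32, had -0.65 for Random antisense minus SAMP8, and -0.27 without SAMP8 3, which read 10.26. Ppp1r1b also belongs to the striatum markers, whose log2 sum was 12.61 on SAMP8 3 and 11.33 to 11.47 on the other untreated SAMP8 arrays. The part of striatal tissue in this value was not tested. Mef2a, a neuronal transcription factor gene, had -0.59 for AbPP antisense minus SAMP8 (SE 0.22, adjusted p = 0.246), and -0.31 without AbPP antisense 4, which read 10.19. Ssh1, which encodes a cofilin phosphatase, had 0.58 for AbPP antisense minus Random antisense (SE 0.23, adjusted p = 0.339).

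Calcium entry, calcium store and calmodulin kinase genes had 12 tested of 16 and none passed. Genes of L-type calcium channels had the smallest p after AbPP antisense: Cacna1c had 0.28 log2 against Random antisense (SE 0.14, limma adjusted p = 0.455) and Cacna1d had 0.43 against SAMP8 (SE 0.17, adjusted p = 0.253). Without AbPP antisense 4, which read 9.40 on Cacna1d against 8.60 to 8.65 in the other AbPP antisense mice, the Cacna1d difference was 0.23. Camk2a, the main synaptic calmodulin kinase gene, had 0.21 for Random antisense minus SAMP8, and 0.14 without SAMP8 1. Orai1, encoding a store-operated calcium channel, read 3.89 to 4.54 in untreated SAMP8 mice and 4.33 to 7.56 in Control mice, with 7.56 on Control 4. Its difference was -1.09 (SE 0.52, adjusted p = 0.999), and -0.35 without Control 4 and AbPP antisense 4.

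NFAT target genes had 3 tested of 10, Bdnf, Ptgs2 and Trpc6, and none passed. The cytokine genes of the list, which NFAT drives in lymphocytes, were among those not tested. Ptgs2, encoding cyclooxygenase 2, had -0.59 log2 for AbPP antisense minus Random antisense (SE 0.69, limma adjusted p = 0.774), and 0.33 without AbPP antisense 2, which read 4.97. Bdnf, the neurotrophin gene, had -0.28 for AbPP antisense minus SAMP8 (SE 0.48, adjusted p = 0.824). AbPP antisense mice read 9.37, 7.35, 9.11 and 6.42 on Bdnf, against 8.30 to 8.39 in untreated SAMP8 mice, and the difference was 0.27 without AbPP antisense 4. Random antisense minus SAMP8 was -0.21 for Bdnf, and -0.12 without Random antisense 4. Trpc6 had 0.51 for SAMP8 minus Control (SE 0.48, adjusted p = 0.999). Without Control 4, which read 4.46 against 6.37 to 6.75 in the other Control mice, it was -0.016. Trpc6 also belongs to the dentate markers.

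**Figure D5:**
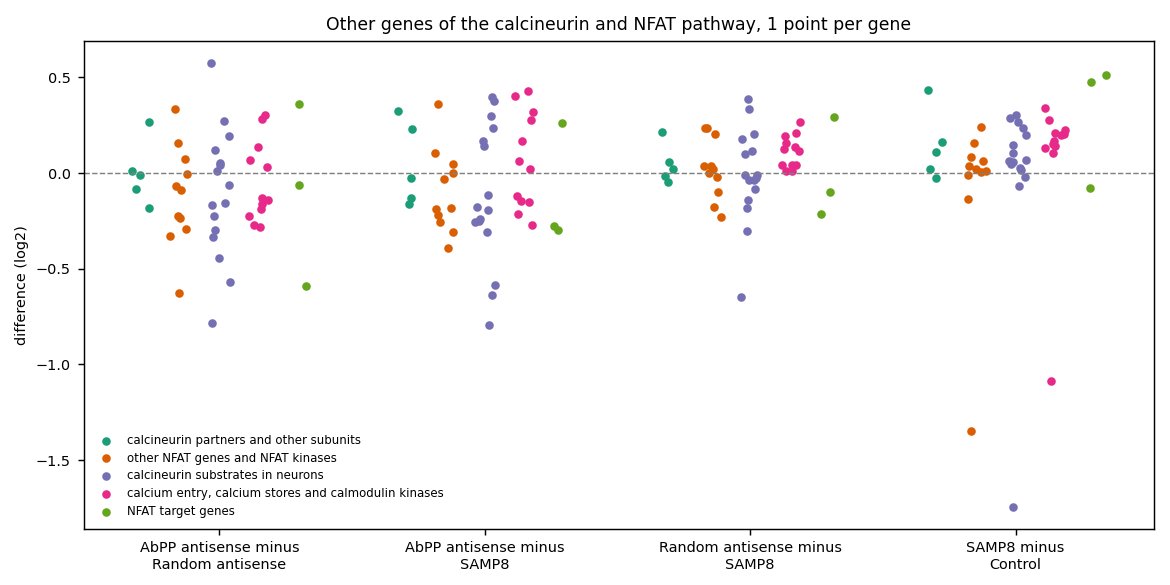
Differences in log2 (vertical axis) of the 47 tested pathway genes in the 4 comparisons (horizontal axis), each point a gene, coloured by list. No gene passed an adjusted p of 0.05, and the points farthest from 0 are Ppp1r1a at -1.74 and Nfatc1 at -1.35 in SAMP8 minus Control.

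The 5 genes whose pattern was most like that of the dim Rcan2 probe set were named from 11044 other genes by the Pearson correlation over 16 arrays. They were Chtop (0.90), Rnf6 (0.89), Pdf (0.89), Leprotl1 (0.88) and Dync1li1 (0.88). The arrays share the 4 groups, so a lower mean in AbPP antisense mice is enough to give a high value. Without Control 4 and AbPP antisense 4 the values were 0.88, 0.88, 0.94, 0.88 and 0.85, and Spearman rho over 16 arrays was 0.78, 0.81, 0.89, 0.71 and 0.49. The AbPP antisense minus Random antisense difference of these genes was -0.22 for Chtop, -0.44 for Rnf6, -0.48 for Pdf, -0.51 for Leprotl1 and -3.08 for Dync1li1, against -1.73 for Rcan2.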

How the data were processed

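The values are the log2 expression values the authors deposited, made with GCRMA per the submitters' processing notes, with its version not given in the sources used here. GCRMA corrects background, normalizes by quantiles and gives 1 value per probe set, and it compresses or stretches differences near background. Scanned intensities were not used here. Labels of groups came from sample titles, the number of per-sample columns left unused was 0, and each array was 1 mouse.

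Removing 64 control probe sets left 45037. Of these, 34945 have 1 symbol in the platform annotation, 932 several and 9160 none. Tests were run on the 23905 that exceeded 4 log2 on 4 arrays or more, leaving out 21132. A probe set shared by Ppp3r1 and another gene was not used. The brightest tested probe set of 1 symbol stood for a pathway gene, giving 11465 genes.

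Groups were compared with limma 3.58.1 in R 4.3.3, with a mean for each of the 4 groups and Benjamini-Hochberg adjustment over all tested probe sets and a threshold of 0.05. The script was tested on simulated data. The members and lists were chosen with earlier results of these data known. Named were every member, the pathway gene of smallest p in a list with no call, and the 5 genes most correlated with the Rcan2 probe set of lowest difference. Alternatives were no filter, a filter at 6 log2, median scaling, the 8 arrays of a comparison alone, each array left out, Control 4 and AbPP antisense 4 left out, a replicate block, Random antisense 1 placed with SAMP8, the actin 3′ minus 5′ difference as a covariate, and a trended robust variance.

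Whether replicate numbers pair arrays was checked by correlating how arrays depart from their group mean. Pairs with the same number gave -0.27 to 0.24 and other pairs -0.28 to 0.32, so the numbers were not used to pair. Figures were drawn with Python 3.11.15 and matplotlib 3.10.9. The number of arrays limits precision, no depth applies to arrays, and the labels give no batch. Promoter sequences and gene positions are from RefSeq on GRCm38.p6, with 7 of 8 genes matched to a promoter. The sources name no build for the arrays. Memory scores and protein levels were not analysed here.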

Additional observations from a re-analysis of the deposited data

Results flagged for a closer look

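Each group of 4 arrays was searched, for each of the 17 tested probe sets, for an array far from the other 3. Of 68 groups 8 had one, where chance gives about 1 in 20. The groups are not independent, because several probe sets share a gene and all share the same arrays. Control 4 was the lowest array for 27.3% of all probe sets and the highest for 18.3%. The share of flagged groups over all probe sets is not given here, so no excess in these genes is read from the count. In Control mice, Control 4 was high for both Nfatc3 probe sets, at 9.29 log2 against 7.22 to 7.53 in the other 3 (1419976_s_at) and 7.19 against 4.78 to 4.96 (1452497_a_at). Control 4 was low for Ppp3r1 1433591_at, at 12.94 against 13.50 to 13.60. Its leukocyte markers summed to 14.94 log2, against 11.13 to 11.23 in the other Control mice. In untreated SAMP8 mice, SAMP8 4 was high for Nfatc3 1452497_a_at, at 5.49 with the other 3 at 4.96, and SAMP8 3 was high for Ppp3r1 1433591_at, at 13.68 against 13.54 to 13.56.

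The other 3 were probe sets of Ppp3cb. AbPP antisense 2 was low on 1428474_at, at 8.10 log2 against 8.81 to 8.87. Random antisense 4 was low on 1427468_at, at 10.91 against 11.18 to 11.22, and Random antisense 2 was low on 1446149_at, at 3.98 against 4.31 to 4.35.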

How the results depend on the processing

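Under all alternatives run, 0 member probe sets passed in SAMP8 minus Control and 0 pathway genes passed in any comparison. The dim Rcan2 difference for AbPP antisense minus Random antisense ranged from -1.86 to -1.62 with 1 array left out. Its sign could not change there, because every AbPP antisense array lay below every Random antisense array. Nfatc3 1419976_s_at reversed in SAMP8 minus Control, at 0.043 without Control 4, with or without AbPP antisense 4, and ranged from -0.65 to 0.043 with 1 array left out. Rcan1 1416601_a_at in SAMP8 minus Control reversed to -0.073 without Control 4, also with AbPP antisense 4 out, and to -0.042 without SAMP8 3, in a range of -0.073 to 0.16. Values near background limit what dim probe sets show.

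Counts over all probe sets moved. For SAMP8 minus Control, 86 were called, 37 with only its 8 arrays, and 54 to 115 with 1 array left out. For AbPP antisense minus SAMP8, 69 were called, 31 with no filter, 37 with the array median subtracted, 5 with 8 arrays and 401 without Control 4 and AbPP antisense 4. That count ran from 16 (without SAMP8 3) to 1286 (without AbPP antisense 3). For AbPP antisense minus Random antisense, 20 were called, 13 with a filter at 6 log2, with the median subtracted or with Random antisense 1 placed with SAMP8, 0 with 8 arrays, 59 with the actin covariate and 199 without Control 4 and AbPP antisense 4. That count ran from 11 (without Random antisense 1, 2 or 3) to 896 (without AbPP antisense 3). Beyond the fewer arrays of some fits, the cause was not tested. Median scaling moved the median of all probe sets by at most 0.066 log2.

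With the replicate number as a block, 17 probe sets were called for AbPP antisense minus Random antisense and 63 for AbPP antisense minus SAMP8. The block gave 0 for Random antisense minus SAMP8 and 71 for SAMP8 minus Control. Every group holds every replicate number, so the block could not change the Rcan2 difference of -1.73. Of 16 arrays, 5 correlated best with an array of their own number.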
